A study of Macaca mulatta with 9 samples.

Results

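The genes described here encode extracellular and lysosomal proteases and their inhibitors: the matrix metalloproteinases (MMPs), ADAMs, ADAMTS proteins, cathepsins, plasminogen activator urokinase with its receptor, the tissue inhibitors of metalloproteinases (TIMPs) and the serpins. They were chosen by symbol, as probe sets annotated with a single gene symbol of these families, with ADAMTS1, ADAMTS4, ADAMTS5 and ADAMTS18 left out. The rule gave 173 probe sets for 92 genes, out of 52766 probe sets on the array that were not controls and 14132 symbols with a probe set of their own. Of these 173, 99 probe sets for 56 genes were bright enough to be tested.

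A growing follicle takes apart and rebuilds the matrix around and between its cells, and the ovary is known for tight control of this process. MMPs cleave collagens and other matrix proteins, are secreted as inactive precursors and are held in check by TIMPs, while urokinase, bound to its receptor PLAUR, turns plasminogen into plasmin, which can activate several MMPs. Cathepsins are mostly lysosomal proteases, ADAMs shed membrane proteins, ADAMTS enzymes process matrix proteins, and many serpins trap serine proteases such as urokinase.

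The samples were small antral follicles (SAFs) from young adult female rhesus macaques, taken at or near menses in the early follicular phase. Control females ate a standard diet, and the WSD group ate a western-style diet. The WSD+T group ate the same western-style diet and had chronically elevated androgen, given in the labels as chronic T, for testosterone. Androgen elevation without the diet was not analysed here, so the WSD+T group differs from control in both. Each of 3 groups had 3 arrays, labelled as biological replicates, and each sample pooled the follicles of 1 female and ovary (3.7 ± 0.3 per ovary, kind of error not stated). The whole follicle content, wall and cumulus-oocyte complex together, was lysed, so the arrays read a mixture of cells. In such bulk samples fewer cells of a type and less RNA per cell cannot be told apart.

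Values are linear signals per probe set that the authors had scaled to a common trimmed mean. Array medians ran from 15.9 to 23.7, the lowest being WSD replicate 3. Fold changes are differences of group means of log2(signal + 16), which understates the change of dim genes. A probe set was called when limma's p, adjusted by Benjamini-Hochberg over all 26383 probe sets tested, was below 0.05. Signals of different probe sets cannot be compared with each other. Granulosa markers (8 of 10 listed) and oocyte markers (8 of 10) were all bright enough to be tested, and so were 3 of 6 theca markers, with CYP17A1 among them. Summed granulosa marker signal was 9130 to 11854 in control, 4144 to 7894 in WSD and 5498 to 6030 in WSD+T. In WSD the granulosa genes INHA (-2.09, limma adjusted p = 0.0173) and INHBB (-2.31, 0.00323) and the theca genes CYP17A1 (-1.67, 0.00715) and HSD3B2 (-1.04, 0.00683) were called lower than control, as was the stromal gene LUM (-4.22, 0.00296). INHBA (0.51, 0.0448), the oocyte gene ZP4 (1.04, 0.0310) and the smooth muscle gene TAGLN (0.93, 0.0342) were called higher. The other tested markers of these cell types were not called in WSD against control. Of these, the granulosa markers ran from -0.48 (CYP19A1) to -1.88 (HSD17B1) and the oocyte markers from -0.41 (NLRP5) to 0.37 (FIGLA). The theca gene STAR was at 0.34, and the stromal genes COL1A1, COL1A2 and DCN were at -0.16, -0.07 and -0.47. The smooth muscle genes CNN1 and MYH11 were at 0.26 and 0.37. In WSD+T INHA, INHBB and HSD3B2 were called lower than control and the oocyte gene FIGLA higher, and against WSD HSD3B2 was lower and LUM higher. The part of these markers in the results below was not tested.

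The arrays also differed in markers of myeloid cells. The summed signal of 13 of 15 listed myeloid markers, CD68, CD14, CSF1R and PTPRC among them, was 12632, 2437 and 3018 in control replicates 1 to 3. It was 20369, 28963 and 1483 in WSD, and 21397, 19356 and 20443 in WSD+T. Control replicates 2 and 3 and WSD replicate 3 were thus low, and the WSD+T arrays were all high. The same 3 arrays were lowest in summed endothelial markers (1205, 1148 and 602, against 1654 to 3689 on the others) and in summed neutrophil markers (22.3, 52.0 and 15.7, against 127 to 665). Of the endothelial markers PECAM1, CDH5 and VWF had these as their 3 lowest arrays. ENG, CLDN5, TEK and KDR instead had WSD replicate 1 among their 3 lowest. S100A8 and S100A9, the tested neutrophil markers, also had these 3 lowest arrays. CSF3R, MPO and ELANE, all below the filter, did not. By limma 0 of the 12 tested myeloid markers were called in any comparison, and 2 had an unadjusted p under 0.05, both higher in WSD+T than control. On each of the 12 those 3 arrays were the lowest. The 3 lymphocyte markers on the array were all below the filter.

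Most members did not pass the test in any comparison. In WSD against control 8 of 99 member probe sets were called (8.08%), against 14.5% of all probe sets tested. Of the 8, 7 were higher in WSD (7.07%, background 4.78%) and 1 was lower (1.01%, background 9.68%). The 7 stood for 5 genes, CTSK, CTSL, MMP1, MMP3 and PLAUR, and the lower gene was ADAMTS3. The comparison of WSD+T with control called 1 of 99 (background 1.97%), SERPINB6, which was lower (background 1.43%), and 0 higher (background 0.542%). Between WSD+T and WSD 1 of 99 was called (background 2.99%), MMP11, which was higher (background 2.04%). At an unadjusted p under 0.05 there were 14 of 99 higher (background 11.2%) and 8 lower (background 20%) in WSD against control. The same counts were 17 (background 9.37%) and 4 (background 9.84%) in WSD+T against control, and 10 (background 13.8%) and 7 (background 7.18%) in WSD+T against WSD. Each pair of comparisons shares arrays, so the 3 are not independent of each other. Over all probe sets, 1262 were called higher and 2555 lower in WSD than control, but 1459 and 1286 after median centring of the arrays and 1498 and 1967 after quantile normalization. Between WSD+T and WSD 539 were called higher and 250 lower, but 120 and 180 after median centring and 303 and 324 after quantile normalization.

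By family, the median fold change in WSD against control was 1.32 (log2) over 16 cathepsin probe sets and 1.57 over 4 probe sets of PLAU and PLAUR, beside -0.08 over all probe sets tested. It was 0.29 for 18 MMP, 0.20 for 6 TIMP, 0.03 for 11 ADAM, -0.11 for 16 ADAMTS and ADAMTSL and -0.01 for 28 serpin probe sets. With 1 probe set per gene the cathepsin median was 0.71 over 10 genes, since CTSS alone has 4 probe sets. The ADAMTS and serpin medians turned positive after either other scaling (0.02 and 0.13 after median centring). For WSD+T against control the cathepsin median was 1.20 and the PLAU and PLAUR median 1.41, beside -0.01 for all, and with 1 probe set per gene the cathepsin median was 0.88. The members tested passed a filter on mean signal over all arrays, so these medians describe the brighter probe sets only.

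**Figure D1:**
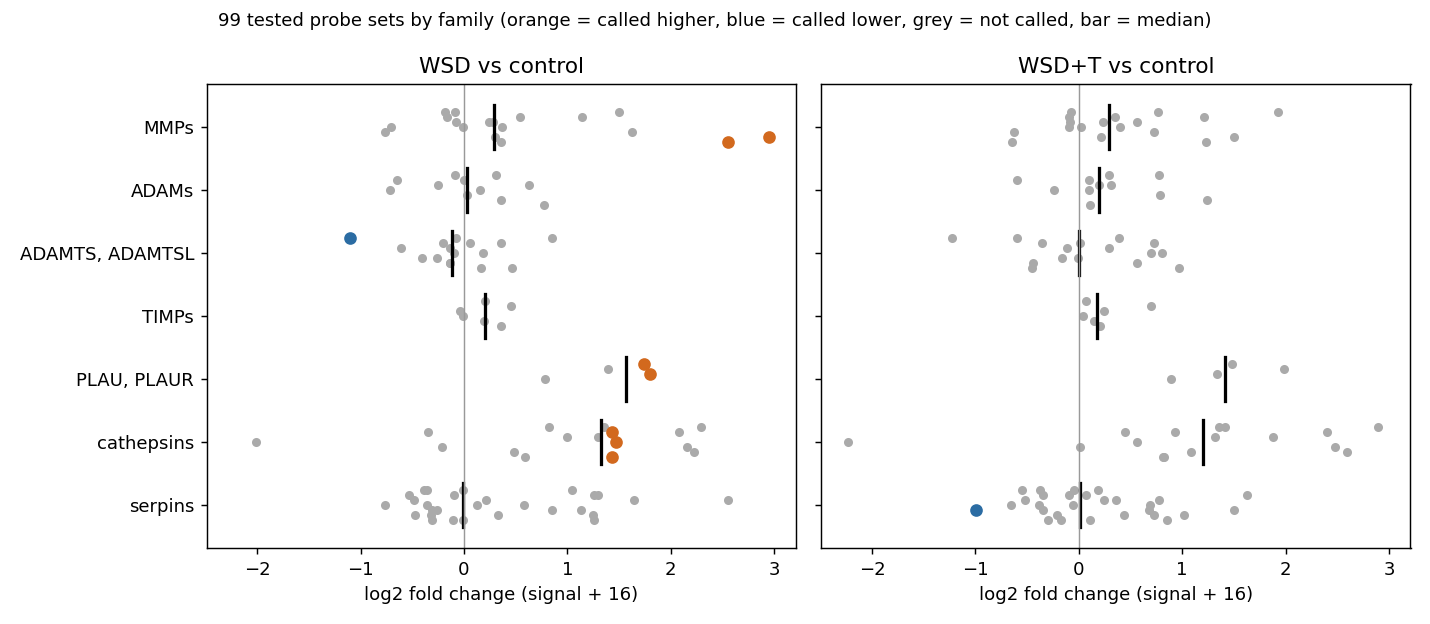
Log2 fold change (x axis, on the signal + 16 scale) of the 99 tested probe sets, 1 point each, in 7 families (y axis), for WSD and for WSD+T against control; orange and blue points were called higher and lower, grey points were not called, and the bar is the family's median. The medians of the cathepsins and of PLAU with PLAUR lie to the right of 0, at 1.32 and 1.57 in WSD and 1.20 and 1.41 in WSD+T, with 3 of 16 cathepsin probe sets left of 0 in WSD and 1 in WSD+T.

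Among the cathepsins, CTSK and CTSL rose in WSD. CTSK encodes cathepsin K, a cysteine protease that degrades collagen and is best known from bone-resorbing osteoclasts. Its brighter probe set, MmuSTS.3973.1.S1_at, had signals of 488, 455 and 578 in control, 1278, 1829 and 1148 in WSD and 890.1, 936 and 896 in WSD+T. Every WSD array lay above every WSD+T array, and every WSD+T array above every control array. The difference of WSD from control was 1.43 (SE 0.19, limma adjusted p = 0.00434). The other CTSK probe set gave 252, 225 and 317 in control, 662, 1131 and 573 in WSD and 386, 389 and 411 in WSD+T, a difference of 1.47 (SE 0.25, adjusted p = 0.00878). WSD+T against control reached 0.83 (SE 0.19, adjusted p = 0.0654) and 0.56 (SE 0.25, adjusted p = 0.259), and WSD+T against WSD -0.61 (adjusted p = 0.115) and -0.91 (adjusted p = 0.0812). CTSK was called in WSD against control on both probe sets in each of 19 alternatives run. Without WSD replicate 3 the second probe set was also called lower in WSD+T than WSD (adjusted p = 0.0402), and the first higher in WSD+T than control (adjusted p = 0.0320). Leaving out any other array gave no CTSK call between WSD+T and WSD.

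CTSL, cathepsin L, a lysosomal cysteine endopeptidase that is induced in mouse follicles around ovulation, had signals of 1687, 955 and 729 in control, 3057, 3682 and 2134 in WSD and 2106, 1765 and 2225 in WSD+T. All WSD and all WSD+T arrays were above all controls. The WSD difference was 1.44 (SE 0.31, adjusted p = 0.0202) and the WSD+T difference 0.93 (SE 0.31, adjusted p = 0.165). Leaving out 1 array ended the WSD call in 3 of 9 cases: without control replicate 2 the adjusted p was 0.0674, without control replicate 3 it was 0.0610, and without WSD replicate 1 it was 0.0566. WSD+T against WSD gave -0.51 (SE 0.31, adjusted p = 0.404), with arrays of the groups overlapping.

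A further group of cathepsins split the WSD arrays. CTSS, cathepsin S, a protease of antigen-presenting cells that trims the invariant chain of MHC class II, had signals of 765, 109 and 137 in control, 2454, 3136 and 181 in WSD and 1642, 1308 and 1480.4 in WSD+T on its brightest probe set. WSD replicates 1 and 2 were high, and replicate 3 lay with the control arrays. All 4 CTSS probe sets had control replicates 2 and 3 and WSD replicate 3 as their 3 lowest arrays, the same 3 that were lowest in the myeloid sum. CTSS and CTSK are neighbours on the RefSeq assembly T2T-MMU8v2.0, but CTSK stayed high on WSD replicate 3. The CTSS difference in WSD was 2.23 with an SE of 1.05 (adjusted p = 0.185), and in WSD+T 2.59 (SE 1.05, adjusted p = 0.229).

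CTSD, the main lysosomal aspartic protease, had signals of 754, 251 and 355 in control, 1244, 2229 and 135 in WSD and 1123, 993 and 1089.6 in WSD+T. CTSH, a lysosomal aminopeptidase, had 216, 127 and 151 in control, 593, 1313 and 86.2 in WSD and 701, 586 and 624 in WSD+T. CTSZ, a carboxypeptidase, had 1249, 650.4 and 1247 in control, 1858, 3063 and 494 in WSD and 2225, 2098 and 2141 in WSD+T. In each of these genes WSD replicate 3 was the lowest of the 9 arrays, while the WSD+T arrays lay close together and above every control. CTSA, a lysosomal serine carboxypeptidase that protects other lysosomal enzymes, followed the same order, with 764 on WSD replicate 3, 1098 to 1727 in control and 2188 to 2385 in WSD+T. None of the 4 passed the test, with WSD differences of 0.83 (adjusted p = 0.548), 1.30 (0.281), 0.49 (0.595) and 0.59 (0.444). In WSD+T against control their differences were 1.35 (0.432), 1.88 (0.234), 1.09 (0.340) and 0.81 (0.408).

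The remaining cathepsins went other ways. CTSV, a close relative of CTSL, had signals of 44.1, 112 and 505 in control, 30.6, 11.7 and 31.4 in WSD and 16.3, 14.5 and 23.5 in WSD+T. Both diet groups lay below all controls, but the controls spread widely and neither difference passed, at -2.01 (SE 0.66, adjusted p = 0.0741) and -2.23 (SE 0.66, adjusted p = 0.125). CTSV was called in WSD without control replicate 1, and in WSD+T against control with array weights per group. CTSF, a cysteine cathepsin, had signals of 284 to 369.8 in control, 168 to 321 in WSD and 395 to 499 in WSD+T. The WSD+T arrays were above all others, at 0.80 (SE 0.23, adjusted p = 0.0950) against WSD. CTSO differed by -0.21 in WSD and 0.02 in WSD+T (SE 0.15 for both), with the arrays overlapping. CTSB and CTSC were not analysed here.

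**Figure D2:**
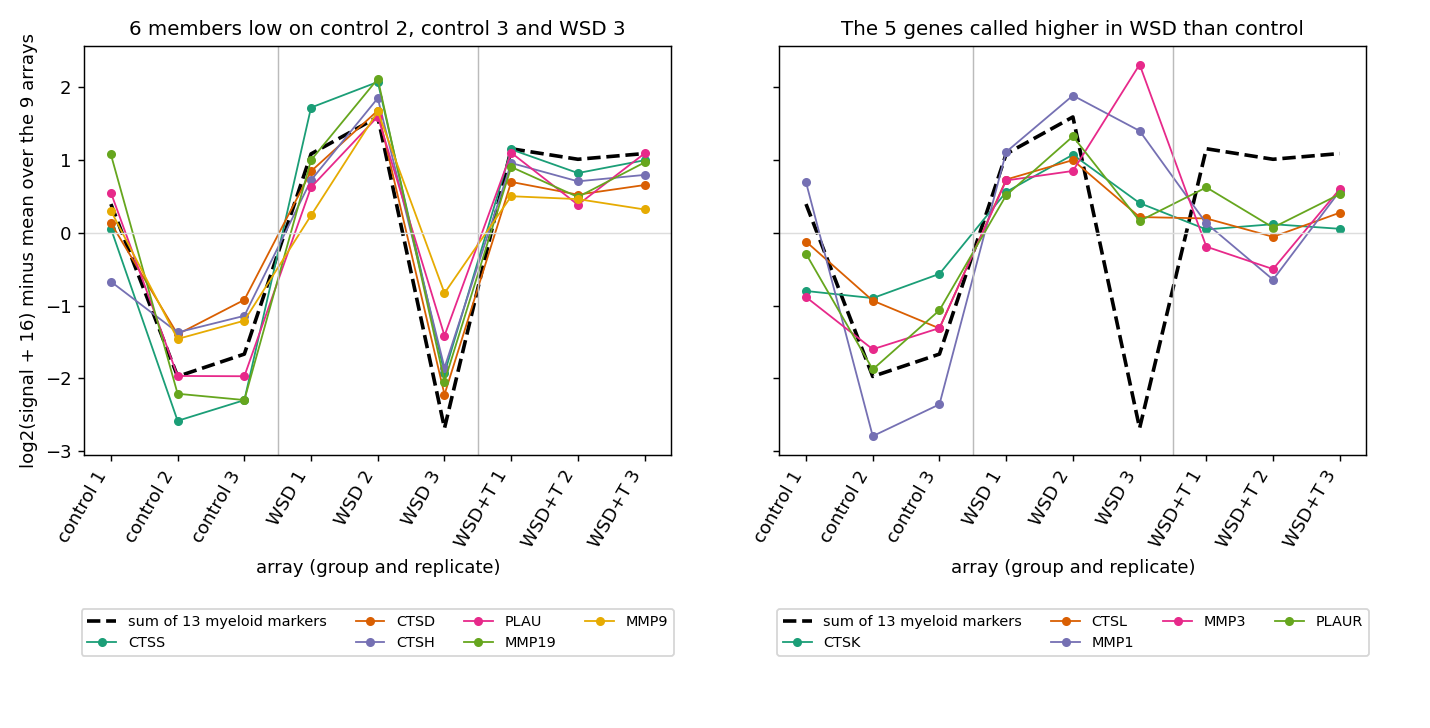
Log2(signal + 16) minus its mean over the 9 arrays (y axis) on each array (x axis, by group and replicate) for CTSS, CTSD, CTSH, PLAU, MMP19 and MMP9 (left) and for the 5 genes called higher in WSD (right); the dashed line is the sum of 13 myeloid markers, and lines only join the points of 1 gene. The left genes drop with the dashed line on WSD replicate 3, where CTSS had a signal of 181 against 2454 and 3136 on the other WSD arrays. The right genes, such as CTSK at 1148, stay above their control arrays there, as all their WSD arrays do.

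Interstitial collagenase MMP1 and stromelysin MMP3 rose in WSD. They are neighbours in a row of MMP genes on the same assembly, which runs MMP7, MMP20, MMP27, MMP8, MMP10, MMP1, MMP3, MMP12 and MMP13. MMP1, which cuts fibrillar collagen, had signals of 589, 38.1 and 57.2 in control, 793, 1367 and 972 in WSD and 394, 224 and 541 in WSD+T. Control replicate 1 was far above the other controls but below every WSD array and above every WSD+T array. The WSD difference was 2.95 (SE 0.80, 95% interval 1.12 to 4.78, adjusted p = 0.0426). It kept its call in 1 of 9 fits that left out an array, the fit without control replicate 1 (adjusted p = 0.00758). The adjusted p was 0.124 and 0.132 without control replicates 2 and 3, 0.0816, 0.0920 and 0.0507 without WSD replicates 1, 2 and 3, and 0.0722, 0.0615 and 0.0670 without WSD+T replicates 1, 2 and 3. In WSD+T the difference from control was 1.50 (SE 0.80, adjusted p = 0.344).

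MMP3, which cleaves proteoglycans and laminin and activates other MMPs, had signals of 15.9, 3.43 and 7.78 in control, 80.9, 90.1 and 276 in WSD and 35.6, 25.7 and 73.3 in WSD+T. The 3 groups did not overlap, with WSD highest, WSD replicate 3 the brightest array and control lowest. The WSD difference was 2.56 (SE 0.45, adjusted p = 0.0102) and was called in all 18 alternatives in which MMP3 was tested. The stricter filter left MMP3 out. In WSD+T the difference from control was 1.23 (SE 0.45, adjusted p = 0.192) and from WSD -1.32 (SE 0.45, adjusted p = 0.142). All MMP3 control signals lay under 21.2, the signal at which the filter was set. MMP3 was thus tested only through its WSD and WSD+T signals, and the size of its difference rests on dim values. The WSD difference was 3.87 with a pseudocount of 1 and 1.43 with a pseudocount of 64.

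MMP10, the second stromelysin and the neighbour of MMP1, had signals of 296, 55.3 and 66.6 in control, 296, 460.1 and 348 in WSD and 224, 128 and 227 in WSD+T. Like MMP1 it was higher on control replicate 1 than on the other controls, and its WSD difference of 1.63 (SE 0.52) missed the threshold (adjusted p = 0.0687). MMP10 was called in WSD when control replicate 1 was left out. MMP7 and MMP20 of the same row were not called, with differences of -0.08 (SE 0.14) and 0.36 (SE 0.35) in WSD. MMP8, MMP12, MMP13 and MMP27 were below the filter.

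The gelatinases, which cleave denatured collagen and basement membrane collagen, did not pass in any comparison. MMP2 had signals of 829, 596 and 734 in control, 789, 1422 and 702 in WSD and 888, 1031 and 919.7 in WSD+T. Its differences were 0.37 (SE 0.26, adjusted p = 0.363) in WSD and 0.40 (SE 0.26, adjusted p = 0.439) in WSD+T. MMP9, abundant in myeloid cells, had signals of 69.9, 9.37 and 14.2 in control, 66.2, 205 and 23.2 in WSD and 82.7, 80.0 and 71.0 in WSD+T. Its 3 lowest arrays were those that were lowest in the myeloid sum, as were those of MMP2, and its differences of 1.15 and 1.22 had an SE of 0.63 (adjusted p = 0.247 and 0.326).

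MMP11, stromelysin 3, was the member that was called between WSD+T and WSD, which ate the same diet. Its signals were 51.2, 55.1 and 56.7 in control, 28.9, 52.7 and 60.8 in WSD and 105, 94.0 and 114 in WSD+T. The WSD+T arrays were above all other arrays, and WSD overlapped control. The difference of WSD+T from WSD was 0.96 (SE 0.20, adjusted p = 0.0465) and from control 0.77 (SE 0.20, adjusted p = 0.0945). Against WSD the call held in 2 of 9 fits that left out an array, those without WSD replicate 2 or WSD replicate 3 (adjusted p = 0.0252 in the latter). The other fits gave 0.0717, 0.0659 and 0.0696 without control replicates 1, 2 and 3, 0.0805 without WSD replicate 1, and 0.176, 0.153 and 0.153 without WSD+T replicates 1, 2 and 3. After median centring it was 0.119 and after quantile normalization 0.115.

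The membrane-type MMPs were not called. MMP14, which activates MMP2 at the cell surface, had 106 to 136 in control, 114 to 235 in WSD and 116 to 160.4 in WSD+T on its brighter probe set (0.30, SE 0.26, adjusted p = 0.457 in WSD). MMP15 had 56.2, 39.8 and 29.2 in control and 15.2, 13.3 and 30.4 in WSD (-0.70, SE 0.24, adjusted p = 0.0805). MMP16 and MMP24 differed by 0.24 and 0.28 in WSD, with SEs of 0.26 and 0.22. MMP23 differed by -0.16 (SE 0.25).

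PLAUR, the urokinase receptor, rose in WSD on both tested probe sets. The brighter gave 164, 43.9 and 89.1 in control, 298, 534 and 229.8 in WSD and 323, 215 and 301 in WSD+T. All arrays of both diet groups were above all controls, and the diet groups overlapped each other. The WSD difference was 1.74 (SE 0.42, adjusted p = 0.0283) and on the other probe set 1.79 (SE 0.48, adjusted p = 0.0392). In WSD+T the differences were 1.48 (adjusted p = 0.113) and 1.34 (adjusted p = 0.184). The brighter probe set lost its WSD call in 5 of 9 fits that left out an array, with adjusted p of 0.0765 and 0.0778 without control replicates 2 and 3, 0.0607 and 0.0622 without WSD replicates 1 and 2, and 0.0514 without WSD+T replicate 3. The other probe set kept it in 2 of 9 such fits, those without control replicate 1 or WSD replicate 3. Its adjusted p was otherwise 0.104 and 0.0976 without control replicates 2 and 3, 0.0812 and 0.0853 without WSD replicates 1 and 2, and 0.0674, 0.0608 and 0.0669 without WSD+T replicates 1, 2 and 3.

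PLAU, urokinase itself, had signals of 246, 29.7 and 29.6 in control, 259.6, 524 and 51.1 in WSD and 367, 217 and 365 in WSD+T. Control replicates 2 and 3 and WSD replicate 3 were the 3 lowest arrays on both PLAU probe sets. The differences from control were 1.40 in WSD (SE 0.85, adjusted p = 0.295) and 1.99 in WSD+T (SE 0.85, adjusted p = 0.251). The tissue-type activator PLAT was not analysed here.

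**Figure D3:**
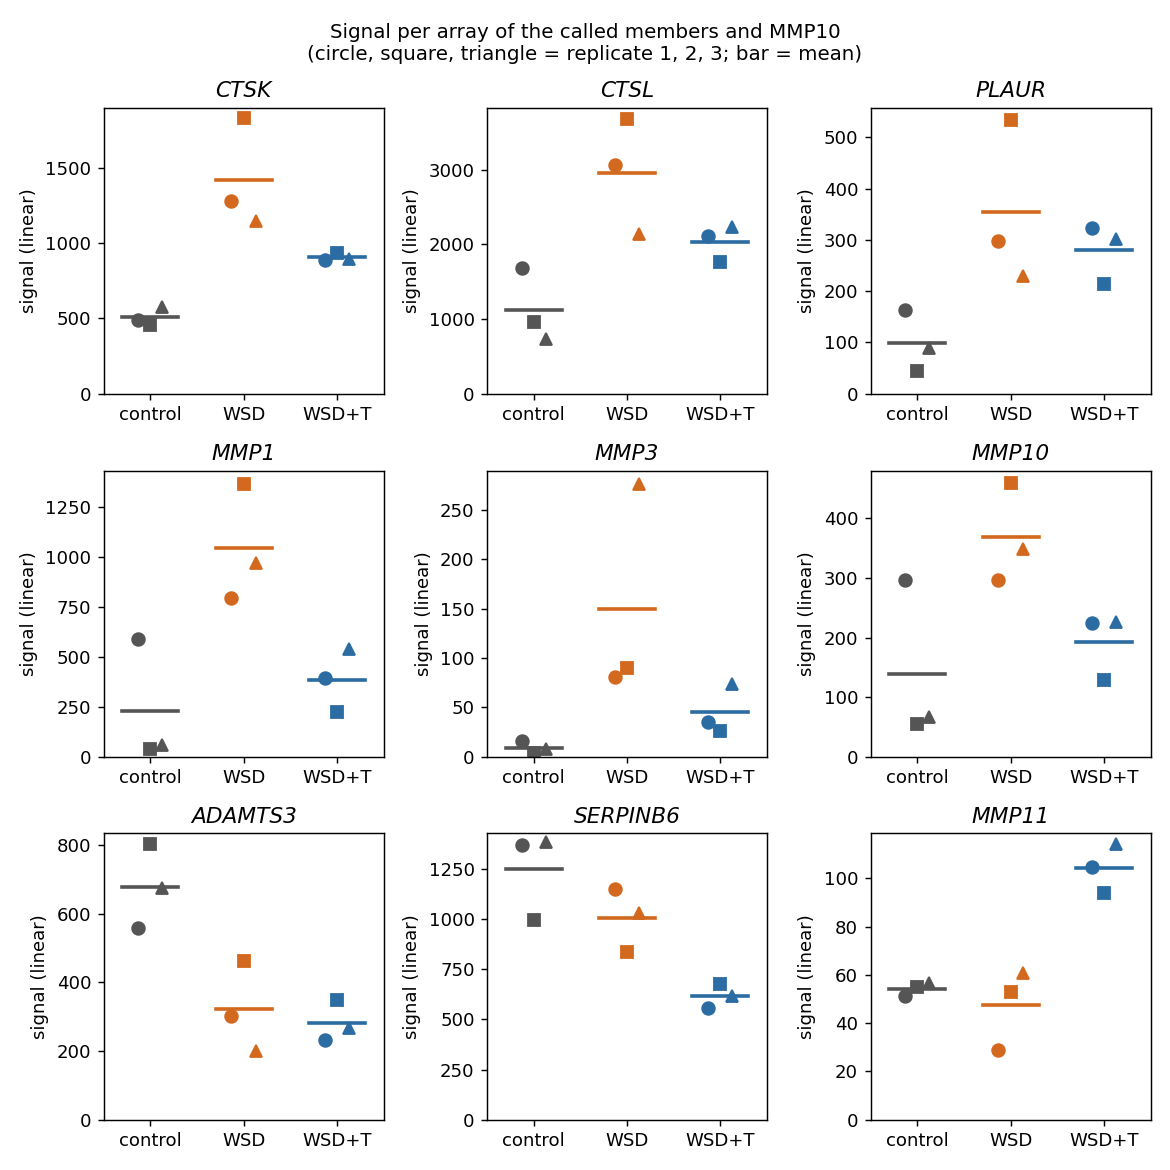
Linear signal (y axis, from 0) of the 8 genes with a called probe set among the members and of MMP10, by group (x axis), with 1 symbol per array (circle, square and triangle for replicates 1, 2 and 3) and the group mean as a bar. CTSK, CTSL, MMP1, MMP3 and PLAUR have every WSD array above every control array, ADAMTS3 has every WSD array below, SERPINB6 has its lowest signals in WSD+T (557 to 675) and MMP11 its highest (94.0 to 114).

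ADAMTS3, which trims the amino-terminal propeptide of procollagens and processes the lymphatic growth factor VEGF-C, was the member that fell in WSD. It had signals of 558, 804 and 675 in control, 301, 463 and 201 in WSD and 233, 349 and 267 in WSD+T. Both diet groups lay below all controls and overlapped each other. The difference was -1.10 in WSD (SE 0.29, adjusted p = 0.0387) and -1.22 in WSD+T (SE 0.29, adjusted p = 0.0736). The WSD call held in 2 of 9 fits that left out an array, those without WSD replicate 2 or 3. The rest gave adjusted p of 0.0557, 0.118 and 0.0982 without control replicates 1, 2 and 3, 0.0905 without WSD replicate 1, and 0.0614, 0.0530 and 0.0676 without WSD+T replicates 1, 2 and 3.

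Other ADAMTS genes did not pass. ADAMTS9, which cleaves the proteoglycan versican, had 2133, 2184 and 2182 in control, 1681, 1373 and 1875 in WSD and 2153, 2196 and 2101 in WSD+T. The WSD arrays were below all others, at -0.41 (SE 0.14, adjusted p = 0.0912), and the second probe set, at 525, 497 and 521 in control and 308, 275 and 433 in WSD, gave -0.61 (SE 0.18, adjusted p = 0.0517). The other 2 ADAMTS9 probe sets differed by 0.06 and -0.13 with SEs of 0.43 and 0.37. Without WSD replicate 3 both of the first pair were called lower in WSD (adjusted p = 0.0337 and 0.00862), but leaving out any other array gave no such call. ADAMTS9 was also called, on at least 1 probe set, with a pseudocount of 64, the stricter filter and quantile normalization. ADAMTS2, a procollagen propeptidase like ADAMTS3, had 124 to 175 in control, 117 to 289 in WSD and 98.7 to 108 in WSD+T (-0.45, SE 0.29, adjusted p = 0.440 against control). ADAMTS6 had 124, 132 and 141 in control, 135, 166 and 81.5 in WSD and 234, 212 and 228 in WSD+T. Its WSD+T arrays were above all others, at 0.70 (SE 0.22, adjusted p = 0.138) against control and 0.79 (SE 0.22, adjusted p = 0.0831) against WSD. ADAMTS6 was called against WSD when WSD replicate 2 was left out.

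Among the ADAMs, ADAM9, a widely expressed sheddase, came nearest to the threshold. It had 1294, 1999 and 1921 in control, 2729, 2781 and 2445 in WSD and 2288, 1888 and 2203 in WSD+T. The WSD arrays were above all others on both probe sets, at 0.63 (SE 0.19, adjusted p = 0.0568) and 0.78 (SE 0.23, adjusted p = 0.0553) against control. Without WSD replicate 3 both were called (adjusted p = 0.0469 and 0.0336), but leaving out any other array gave no ADAM9 call. ADAM9 was also called, on at least 1 probe set, with a pseudocount of 64, the stricter filter and median centring. ADAM10, the sheddase of Notch receptors, had 2588, 2659 and 2867 in control, 2903, 2706 and 2530.3 in WSD and 2948, 2895 and 2822 in WSD+T. Its differences were 0.00 in WSD (95% interval -0.27 to 0.28) and 0.10 in WSD+T (-0.18 to 0.37). ADAM12, which cleaves IGF-binding proteins, had 2092, 2057 and 2214 in control, 1446, 815 and 1785 in WSD and 1792, 1957 and 1643 in WSD+T, a WSD difference of -0.72 (SE 0.26, adjusted p = 0.0966). The WSD arrays were below all controls. Its 2 other probe sets gave -0.09 (SE 0.61) and -0.64 (SE 0.41).

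ADAM15 and ADAM18 had WSD+T arrays above all controls. ADAM15 had 229, 111 and 195 in control and 298, 340.4 and 286 in WSD+T (0.79, SE 0.37, adjusted p = 0.284). ADAM18, known from sperm, had 52.0, 95.8 and 73.6 in control, 121, 313 and 15.9 in WSD and 203, 168 and 206 in WSD+T (1.24, SE 0.69, adjusted p = 0.366). The WSD arrays of ADAM18 spanned from below to above all other arrays. ADAM8 and ADAM17 were not analysed here.

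The TIMPs showed no called difference. TIMP1, which inhibits most MMPs, had 3437, 3081 and 3707 in control, 3883, 4479.7 and 3402 in WSD and 3813, 3869 and 3591 in WSD+T. The groups overlapped, with differences of 0.20 (95% interval -0.14 to 0.53) in WSD and 0.14 (-0.19 to 0.48) in WSD+T, and the other 2 TIMP1 probe sets gave -0.01 and 0.21 in WSD (SE 0.13 and 0.12). TIMP2, which binds MMP14 in the activation of MMP2, had 108, 113 and 105 in control, 104, 200.1 and 175 in WSD and 194, 174 and 190.3 in WSD+T. The WSD+T arrays were above all controls (0.70, SE 0.21, adjusted p = 0.132), but the second TIMP2 probe set overlapped (0.21, SE 0.26). TIMP3, held in the matrix, had 28.9 to 38.9 in control, 26.6 to 36.6 in WSD and 38.0 to 46.9 in WSD+T (-0.04 and 0.25 against control, SE 0.15). TIMP4 was not analysed here.

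Among the serpins SERPINB6 fell in WSD+T. This intracellular serpin, an inhibitor of cathepsin G and trypsin-like proteases, had signals of 1373, 996 and 1387 in control, 1151, 839 and 1031 in WSD and 557, 675 and 619 in WSD+T. The WSD+T arrays were below all others, and WSD overlapped control. The difference from control was -0.99 (SE 0.18, adjusted p = 0.0386), and from WSD -0.68 (SE 0.18, adjusted p = 0.0801). The difference from WSD was called when WSD replicate 2 was left out. The call against control held in 3 of 9 fits that left out an array, those without a WSD array. It was lost without control replicate 1 (0.0924), 2 (0.0509) or 3 (0.118) and without WSD+T replicate 1 (0.196), 2 (0.0955) or 3 (0.172).

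SERPINE2, protease nexin 1, an inhibitor of urokinase and thrombin that granulosa cells are known to secrete, had 4155, 4348 and 5776 in control, 5054, 3535 and 4823 in WSD and 4090.1, 4984 and 4230.4 in WSD+T. The groups overlapped on this probe set (-0.09 in both comparisons, SE 0.19). Another probe set gave 3757, 3214 and 4568 in control, 3185, 1047 and 3333 in WSD and 2411, 2571 and 2262 in WSD+T, with differences of -0.76 and -0.65 (SE 0.40, adjusted p = 0.227 and 0.404). On it the WSD+T arrays were below all controls. All 4 SERPINE2 probe sets gave negative differences, from -0.76 to -0.09 in WSD and from -0.65 to -0.09 in WSD+T. None of them was called.

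SERPINB2, an inhibitor of urokinase, had 32.5, 12.3 and 46.1 in control, 421, 915 and 26.4 in WSD and 64, 52.3 and 62.6 in WSD+T. WSD replicates 1 and 2 were far above all other arrays and WSD replicate 3 lay among the controls. The difference of 2.55 (SE 0.95) was not called (adjusted p = 0.106). Without WSD replicate 3 it was 3.86 (SE 0.39, adjusted p = 0.00379), and WSD+T against WSD was -3.08 (SE 0.39, adjusted p = 0.0147). Since WSD replicate 3 was the low WSD array, these calls are no separate support for a difference. Leaving out any other array gave no SERPINB2 call in either comparison.

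SERPINA5, the protein C inhibitor, had 466, 733 and 631 in control, 1014, 530.5 and 638 in WSD and 776, 806 and 739 in WSD+T (0.22 and 0.36, SE 0.25). SERPINH1, the collagen chaperone HSP47, had 1630.5 to 1899 in control, 1474 to 1840.0 in WSD and 1335 to 1457 in WSD+T (-0.11 and -0.30, SE 0.14). SERPING1, the inhibitor of complement C1, had 626, 215 and 412 in control, 598, 975 and 599.7 in WSD and 677, 584 and 609 in WSD+T (0.85, SE 0.35, adjusted p = 0.137 in WSD). SERPINF1, an anti-angiogenic serpin, had 243 on WSD replicate 3 beside 638 and 1303 on the other WSD arrays, 306 to 537 in control and 594 to 662 in WSD+T. SERPINB9, an inhibitor of granzyme B, had 33.9 to 60.1, 29.8 to 69.3 and 39.5 to 43.4 in the 3 groups on its brighter probe set (0.12 and -0.05, SE 0.25).

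In all, 25 of 99 member probe sets (25.3%), of 16 genes, had control replicates 2 and 3 and WSD replicate 3 as their 3 lowest arrays, against 7.00% of all probe sets tested. They were all 4 of CTSS, both of CTSD, CTSH, PLAU and SERPINI1, 2 of 3 of ADAM10, 2 of 5 of SERPINA1, 1 of 2 of MMP14, MMP19 and SERPINB9, and those of CTSA, CTSZ, MMP2, MMP9, SERPINF1 and ADAMTSL4. None of the 5 genes called higher in WSD had these as its 3 lowest arrays. Their WSD arrays all lay above their controls, so this could not have come out otherwise. It does not set them apart from the pattern. On their brightest probe sets CTSL, MMP1, MMP3 and PLAUR had control replicate 1 as the highest control, as the myeloid sum did. Control replicates 2 and 3 and WSD replicate 3 were also the lowest in the summed myeloid, neutrophil and endothelial markers, though not on every single neutrophil and endothelial marker. The part of these markers in the values was not tested. Only the identity of the 3 lowest arrays was compared, not the order within them, and for some, such as ADAM10 and MMP14, the 3 lay close to the rest. No correlation is given, because the myeloid sum itself falls into separate low and high sets.

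Without WSD replicate 3 the count in WSD against control went from 8 to 31 of 99 (31.3%), 26 higher and 5 lower, against 25.1% of all probe sets tested. The backgrounds given without this array count both directions together. The 26 stood for 16 genes: CTSS, CTSD, CTSH, CTSA and CTSZ with CTSK and CTSL, and also PLAUR, MMP3, ADAM9, ADAMTS10, SERPINB2, SERPINA1, SERPINF1, SERPINI1 and ADAM18. SERPINA1 was called only on MmugDNA.1704.1.S1_at and MmugDNA.24291.1.S1_s_at, neither of them its brightest probe set. ADAMTS10 was called only on the brighter of its tested probe sets. The 5 lower were probe sets of ADAM12, ADAMTS3, ADAMTS9 and MMP15. CTSS then gave 3.50 (SE 0.68, adjusted p = 0.0112) on its brightest probe set and CTSH 2.34 (SE 0.33, adjusted p = 0.00524). CTSS, CTSD, CTSH, CTSA, CTSZ, SERPINB2 and SERPINF1 were low on the very array left out. Their calls without it are therefore no separate support for a difference. Of the 8 probe sets called with all arrays 7 were called again, and MMP1 was not. The remaining 2 WSD arrays were those with the highest myeloid sums of that group, 20369 and 28963. Without the same array, which belongs to neither group but enters the shared spread, 12 of 99 were called in WSD+T against control (background 6.74%). The 10 higher were the 4 of CTSS and both of CTSH with CTSK, MMP3, MMP11 and ADAMTS6, and the 2 lower were SERPINB6 and ADAMTS3. Between WSD+T and WSD 5 of 99 were then called (background 5.64%), with MMP11, CTSF and a probe set of ADAMTS9 higher and SERPINB2 and a probe set of CTSK lower.

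For WSD+T against control the groups were often apart although few tests passed. The WSD+T and control arrays did not overlap for 50 of 99 member probe sets (50.5%), against 36.8% of all tested. WSD+T was higher in 35 of these (background 18.8%) and lower in 15 (background 18%). Of the 35, 15 had the 3 lowest arrays of the myeloid sum, and 20, of 16 genes, did not. This split was counted for the members only, so it has no background. Between WSD and control 18 of 99 did not overlap (background 30.8%), 11 higher (background 10.6%) and 7 lower (background 20.2%). Between WSD+T and WSD it was 24 of 99 (background 28.5%), 10 higher (background 17.5%) and 14 lower (background 10.9%).

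The spread within groups was uneven, with a mean variance of 0.152 in control, 0.330 in WSD and 0.0411 in WSD+T on the log2 scale. The test pooled these into 1 spread per probe set. In a fit of control and WSD+T alone, 17 of 100 member probe sets were called (17.0%), against 12.3% of all. Of these 14 were higher, of 10 genes: CTSS on all 4 probe sets, CTSH on both, CTSA, CTSZ, CTSK, TIMP2, MMP11, ADAM18, ADAMTS6 and ADAMTSL1. The 3 lower were SERPINB6, ADAMTS3 and SERPINE2. CTSK was called only on its brighter probe set, and ADAMTSL1 and SERPINE2 only on a probe set that was not their brightest. In it CTSH reached 1.88 (SE 0.19, adjusted p = 0.00732), CTSK 0.83 (SE 0.13, adjusted p = 0.0138) and TIMP2 0.70 (SE 0.11, adjusted p = 0.0140). Group-wise array weights gave 17 of 99 as well (background 12.4%), 13 higher and 4 lower. The backgrounds of these fits count both directions together. In a fit of control and WSD alone 3 of 98 were called (background 3.46%), both CTSK probe sets and MMP3.

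Probe sets of the same gene did not always move alike, and 26 of the 56 tested genes had more than 1. SERPINA1, alpha-1-antitrypsin, had 5, of which the brightest gave 796, 970.3 and 853 in control, 709, 507 and 864 in WSD and 655, 654 and 678 in WSD+T. On another, MmugDNA.1704.1.S1_at, the signals were 679, 102 and 96.2 in control, 992, 1707 and 40.1 in WSD and 581, 533 and 616 in WSD+T. The second had the same 3 lowest arrays as the myeloid sum, and the first did not. SERPINA3, alpha-1-antichymotrypsin, gave 266, 344 and 224 in control and 323, 375 and 347 in WSD on 1 probe set, but 236, 14.5 and 33.2 in control and 203, 577 and 73.3 in WSD on another. MMP19, which cleaves basement membrane proteins, had 602, 47.4 and 43.7 in control and 569.7, 1253 and 55.2 in WSD on its brighter probe set and 173, 338 and 272 in control and 154, 254 and 69.5 in WSD on the other. Their WSD differences were 1.50 (SE 1.14) and -0.77 (SE 0.39). Which transcripts each of these probe sets reads is not known here, since no probe sequences were used.

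**Figure D4:**
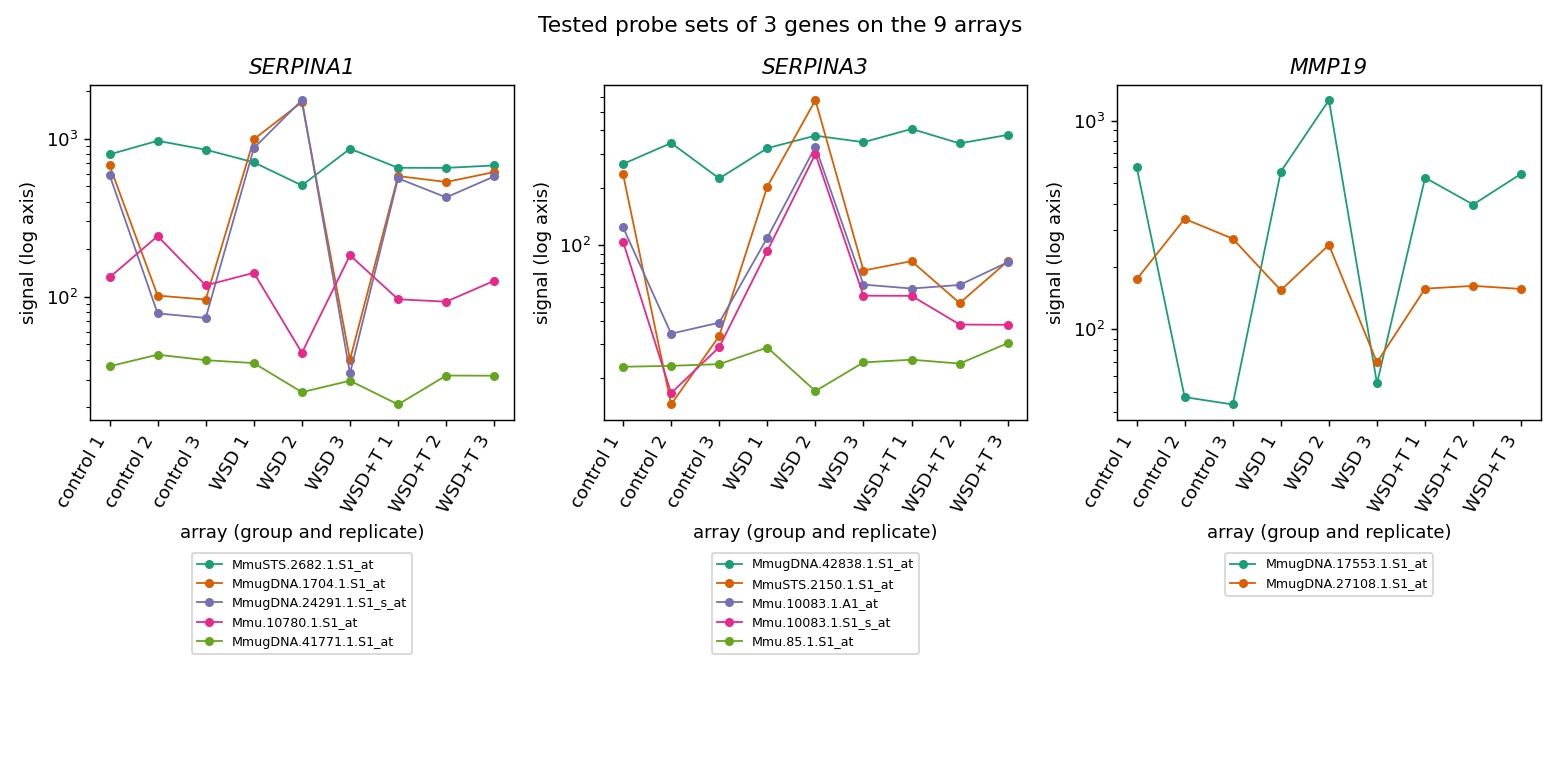
Signal (y axis, log scale) of each tested probe set of SERPINA1, SERPINA3 and MMP19 on the 9 arrays (x axis), with lines joining the points of 1 probe set. Within SERPINA1, MmugDNA.1704.1.S1_at falls to 40.1 on WSD replicate 3, where the brightest probe set is at 864.

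The remaining 74 member probe sets stayed below the filter, with mean signals of 0.681 to 21.1 and a median of 7.06. They left 36 genes with no tested probe set, among them the collagenases MMP8 and MMP13, the macrophage elastase MMP12, MMP28, CTSE, CTSG, CTSW, antithrombin SERPINC1, heparin cofactor SERPIND1, maspin SERPINB5, ADAMTS7 and ADAMTS15. The highest single signal among them was 49.8, for an MMP7 probe set. These genes were not tested, and a signal this low does not show that a gene is silent.

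A list of other genes of the same proteolytic system gave 40 tested genes with 65 probe sets. In WSD against control 8 probe sets of 5 genes rose, TFPI2, MME, F2RL1, F3 and ANXA2, and 3 genes fell, RECK, ST14 and WFDC1, the other 54 probe sets not being called. Over all probe sets tested 4.78% were called higher and 9.68% lower. TFPI2, a secreted Kunitz inhibitor of plasmin and of several MMPs, had 170.5, 82.6 and 107 in control, 752, 723 and 664 in WSD and 241, 163 and 308 in WSD+T. The WSD arrays were far above all others. Its WSD difference was 2.47 (SE 0.27, adjusted p = 0.00303), and WSD+T against WSD was -1.56 (SE 0.27, adjusted p = 0.0315). Of its 5 probe sets 3 were called higher in WSD, and the other 2 overlapped control. On a second of the 3 the signals were 90.0, 41.8 and 69.6 in control, 407, 421 and 415 in WSD and 192, 130.4 and 194 in WSD+T, and WSD+T was also higher than control (1.20, SE 0.24, adjusted p = 0.0444). Against WSD, WSD+T was lower there too (-1.21, SE 0.24, adjusted p = 0.0388). The WSD calls of the 3 probe sets held whichever array was left out. The call against control was lost in 6 of 9 such fits, with adjusted p of 0.0977 and 0.114 without control replicates 2 and 3, 0.0672 without WSD replicate 1, and 0.209, 0.0725 and 0.196 without WSD+T replicates 1, 2 and 3. The calls of WSD+T against WSD were lost on both probe sets without WSD replicate 1 (0.0881 and 0.0968) and without WSD+T replicate 1 (0.143 and 0.147), 2 (0.137 and 0.158) or 3 (0.0791 and 0.112), and on the second without control replicate 3 (0.0590).

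MME, the membrane endopeptidase neprilysin, had 111, 223 and 104 in control, 577, 603 and 628 in WSD and 235, 188 and 251 in WSD+T on the probe set that was called. It was higher in WSD than control (2.01, SE 0.26, adjusted p = 0.00406) and lower in WSD+T than WSD (-1.37, SE 0.26, adjusted p = 0.0361), while its other probe set gave -0.09 (SE 0.13). Its WSD+T call against WSD was lost without WSD replicate 1 (0.0901) or WSD+T replicate 1 (0.147), 2 (0.154) or 3 (0.112). F2RL1, the protease-activated receptor PAR2, had 695, 622 and 1017 in control, 4349, 1651 and 3164 in WSD and 1358, 1045 and 1772 in WSD+T (1.88, SE 0.36, adjusted p = 0.0136 in WSD). Its second probe set gave 2.47 (SE 0.48, adjusted p = 0.0136), and both lost the call without control replicate 2 (0.0512 each). F3, tissue factor, differed by 0.84 (SE 0.20, adjusted p = 0.0250), and ANXA2, a cell-surface binding partner of plasminogen and its activators, by 0.86 (SE 0.24, adjusted p = 0.0446). F3 lost its call without control replicates 1 and 2 (0.0715 and 0.0828) and WSD replicate 1 (0.0731). ANXA2 kept it only without WSD replicate 3. Dropping control replicates 1, 2 and 3 gave it an adjusted p of 0.0633, 0.131 and 0.0807, dropping WSD replicates 1 and 2 gave 0.114 and 0.0943, and dropping WSD+T replicates 1, 2 and 3 gave 0.0786, 0.0727 and 0.0773.

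RECK, a membrane-anchored inhibitor of MMPs, had 599.7, 927 and 651 in control, 295, 369.8 and 452 in WSD and 621, 770.0 and 643 in WSD+T. It fell in WSD (-0.93, SE 0.21, adjusted p = 0.0246), with WSD+T in the range of control, but a second RECK probe set gave 0.55 (SE 0.36). ST14, the membrane serine protease matriptase, had 3432, 3832 and 4381 in control, 2403, 1730.0 and 2502 in WSD and 2506, 2518 and 2525 in WSD+T. It fell in WSD (-0.82, SE 0.17, adjusted p = 0.0182), and WSD+T gave -0.61 (SE 0.17, adjusted p = 0.111). Its other 2 tested probe sets, both dim, were not called and gave 0.17 (SE 0.22) and 0.62 (SE 0.24) in WSD. WFDC1, a secreted WAP-domain protein, had 998, 1254 and 1005 in control, 223, 274 and 662 in WSD and 233, 621 and 342 in WSD+T (-1.60, SE 0.43, adjusted p = 0.0413 in WSD). RECK lost its call without control replicates 2 and 3 (0.0725 and 0.0542) and WSD replicate 1 (0.0696), and ST14 without control replicates 2 and 3 (0.0552 and 0.0593). WFDC1 lost it without control replicates 1 to 3 (0.0807, 0.118 and 0.0956), WSD replicates 1 and 2 (0.115 and 0.0920) and WSD+T replicate 3 (0.0702).

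**Figure D5:**
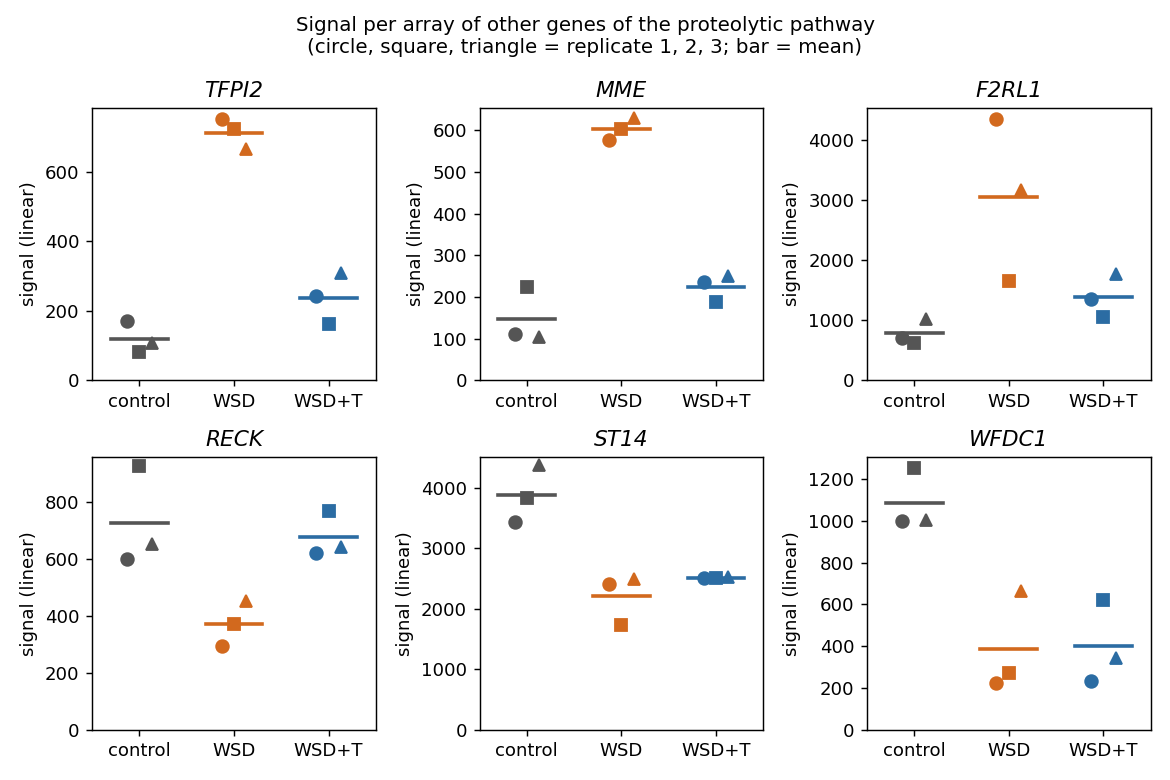
Linear signal (y axis, from 0) of 6 other genes of the proteolytic system by group (x axis), with 1 symbol per array (circle, square and triangle for replicates 1, 2 and 3) and the group mean as a bar. TFPI2 and MME are highest in WSD (664 to 752 and 577 to 628), RECK is lowest in WSD (295 to 452), and ST14 and WFDC1 lie below the control arrays in both diet groups.

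The lysosomal protease LGMN and the cathepsin inhibitor CSTA in that list were not called and split the WSD arrays as CTSS did. LGMN had 625, 99.2 and 162 in control, 1464, 2457 and 109 in WSD and 1083, 826 and 979 in WSD+T. CSTA had 292, 80.0 and 50.2 in control, 551, 1413 and 132 in WSD and 763, 667 and 689 in WSD+T. The secreted serine protease HTRA1 overlapped between groups on its brightest probe set, at 3812 to 4614 in control, 2726 to 4719 in WSD and 4034 to 4611 in WSD+T. Its other 2 tested probe sets split as CTSS did, with 275, 104 and 53.0 in control, 283, 683 and 43.0 in WSD and 331 to 412 in WSD+T on the first of them.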

How the data were processed

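RNA of 9 SAF pools was amplified and hybridised to 1-colour Affymetrix arrays, per the labels. The authors deposited linear signal intensity values per probe set, made with MAS5 (version not stated) per the submitters' processing notes. A mean trimmed by 2% at both ends was 200.01 on every array. Detection calls were not used, and a build is not given in the sources used here. The number of arrays limits the precision.

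From these, log2(signal + 16) was computed, control probe sets were left out, and probe sets with a mean at or above the median of all (5.22, a signal of about 21.2) were tested. limma 3.58.1 in R 4.3.3 (lmFit, eBayes; 6 residual degrees of freedom, prior 2.69) fitted 3 group means to all 9 arrays, and two-sided p-values were adjusted by Benjamini-Hochberg per comparison (threshold 0.05). The code was tested on simulated data. The members, the other lists and the rule for named genes (every gene with a called probe set, plus a set of 39 genes, 31 of them tested, whatever their p, and up to 8 called genes of the other list) were chosen with earlier results of these data known. Further members were named after their values were seen. A gene's brightest tested probe set by mean log2 value represents it unless another is named. Symbols came from the array annotation, and 170 of 173 member probe sets had an Entrez ID in RefSeq (T2T-MMU8v2.0), used for names and gene order only. No sequences are shown, as none was in the files used here. The alternatives tried were other pseudocounts, filters and scalings, fits of 2 groups, array weights, averaged arrays, a replicate block and leaving out each array. Replicate numbers were not taken to pair the samples. Plots were made in Python 3.11.15 using matplotlib 3.10.9.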

Additional observations from a re-analysis of the deposited data

How the results depend on the processing

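No called member or other gene changed direction under any alternative run. CTSK (both probe sets) and MMP3 in WSD against control were called in every alternative that tested them, as were TFPI2 (3 probe sets) and MME of the other list. MMP3 was left out by the stricter filter. In WSD against control 8 member probe sets were called with all arrays (background 14.5%). With only the 2 groups compared it was 3 (background 3.46%). Array weights per group gave 3, averaging WSD+T replicates 1 and 3 gave 4 and the replicate block gave 5. Leaving out each array gave 3 to 31. In WSD+T against control the count was 1 (background 1.97%). It became 17 with only the 2 groups (background 12.3%) and 17 with array weights (background 12.4%). It was 0 with a pseudocount of 1, averaged arrays or the replicate block, and 0 to 12 over the left-out arrays. In WSD+T against WSD the count was 1 (background 2.99%). It became 0 with a pseudocount of 1, no filter, the stricter filter, either scaling, only the 2 groups, array weights, averaged arrays or the replicate block. Over the left-out arrays it was 0 to 5. Counts without a background here do not show whether the members differ from all probe sets. Over all probe sets, WSD against control went from 3817 to 2398 with the stricter filter (fewer probe sets tested), 913 with only the 2 groups, 1367 with array weights, 2220 with the replicate block and 1735 to 6628 over the left-out arrays. WSD+T against control went from 520 to 3245, 3267, 0 (averaged arrays), 3 (block) and 0 to 1777. WSD+T against WSD went from 789 to 300 with median centring, 9 with only the 2 groups, 186 with array weights, 0 (averaged arrays), 1 (block) and 0 to 1548. Beyond the numbers tested, the cause was not tested. Averaging was tried because WSD+T replicates 1 and 3 were more alike than the other WSD+T pairs. Correlations of residuals between same-numbered arrays ran from -0.302 to 0.190, with 4 of 9 over 0.1, so the numbers were not taken to pair samples. Median centring shifted the median of all probe sets by 0.13 in WSD against control and by -0.14 in WSD+T against WSD. Dim genes such as MMP3, whose control signals all lay under 21.2, have fold changes that depend on the pseudocount. With 3 arrays per group, p-values measure the spread between these samples only.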
